A study of Homo sapiens with 3 samples.

Results

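Interferon-stimulated effector genes encode the proteins that carry out the antiviral state of a cell. The set described here comprises 46 gene symbols, listed by name, with earlier results of these data known, and grouped by role: ISG15 conjugation, antiviral GTPases, membrane proteins, IFI family proteins, helicases and nucleases, the SAMD9 and PARP families, nuclear body and TRIM proteins, and antigen processing. Probe sets were assigned to a member where the array annotation gave its symbol alone. Of the 46 members, 45 had such a probe set, with 92 probe sets in all, out of 19775 genes on the array. For each gene the probe set with the highest mean was used, and 32 members lay above the filter on low values (the median over all probe sets, near a signal of 68.6), as did 11917 genes in all. The exception without a probe set of its own was UBA7, the activating enzyme for ISG15, whose 2 probe sets also carry another gene symbol and are not analysed here.

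The arrays measured total RNA of NCI-H1299, an established human lung cancer line without functional p53, in 3 conditions with 1 array each. The groups were mock cells, cells given the microRNA miR-34a and cells given ghR-34a, whose make-up the labels leave unstated. Each RNA was delivered with a lipid reagent at 25 nM for 48 hours, and 250 ng of RNA was labelled per array. The labels do not say what the mock cells received, and an unrelated RNA was not among the conditions, so a difference from mock cannot be told apart from a response to transfected RNA or its carrier in general. With 1 array per condition there is no replicate spread and no test. Each difference below is a difference of log2(signal + 32), which understates changes of low signals.

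Technical error can be gauged in 2 ways within these arrays. Across 42 spike-in control probe sets the SD of the log2 difference was 0.13 for miR-34a against mock, 0.16 for ghR-34a against mock and 0.13 between the transfectants. In 6026 genes at least 2 probe sets passed the filter, and the differences from mock that the top 2 gave were apart by a median of 0.19 (miR-34a) and 0.16 (ghR-34a), with 90th percentiles of 0.57 and 0.51. Neither measure covers the spread between cultures. The cells expressed the keratins KRT8 and KRT18 (2524 in mock, 4236 with miR-34a and 3203 with ghR-34a for KRT8, and 17498, 23158 and 20459 for KRT18), while the epithelial markers EPCAM, CDH1 and KRT19 were under the filter. The log2 differences from mock of KRT8 (0.74 and 0.34) and KRT18 (0.40 and 0.23) were close to or above the medians of the members (0.42 and 0.21), and their part in the result was not tested. Markers of leukocytes, a usual source of interferon, had a summed signal over 7 measured genes of 385 in mock, 344 with miR-34a and 339 with ghR-34a, with 2 of 7 genes above the filter. These were CD3E (113, 70.0 and 57.8) and ITGAM (135, 141 and 124). The pan-leukocyte marker PTPRC, under the filter, was at 28.8, 5.31 and 24.2. Summed signals of plasmacytoid dendritic cell markers (4 genes, 1591, 1394 and 1396, nearly all from TCF4) and of fibroblast and endothelial markers (6 genes, 585, 668 and 646) were also obtained, and 1 of 4 and 3 of 6 of these genes were above the filter.

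Type I interferons signal through JAK kinases to the transcription factor complex ISGF3, which binds a DNA element, the interferon-stimulated response element, in the promoters of its target genes. Type II interferon acts mainly through a second element, the gamma-activated site. The products of the target genes block viral entry, degrade or modify viral RNA, deplete nucleotides, attach the ubiquitin-like protein ISG15 to other proteins and raise antigen presentation. Many of these genes are also expressed at a low tonic level in tumour lines without infection. The microRNA given to the cells acts through pairing of its seed, bases 2 to 8, with messenger RNAs. The seed is in capitals in the mature sequence below, taken from RefSeq (GRCh38.p14, chr1:9151735-9151756, minus strand). The labels do not state the exact RNA used.

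hsa-miR-34a-5p: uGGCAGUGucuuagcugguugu

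The promoters of the members show what the set has in common beyond its names. The core of the interferon-stimulated response element was searched as GAAANNGAAA (TTTCNNTTTC on the other strand) in windows of 300 bases, 250 before to 50 after each RefSeq transcription start (GRCh38.p14), and a gene was counted where any of its windows held a match. Of 39 members with a window, 27 (69.2%) held the motif, 13 of them in 2 or more copies, against 4.38% of 27305 genes with a window. The gamma-activated site, searched as TTCNNNGAA (the same on both strands), was in 12 of 39 members (30.8%) against 9.38% of all genes, and in 6 of the members' 56 windows a match of it overlapped a match of the first motif. A match is a run of letters and not evidence of binding. Since the members were listed as interferon-stimulated genes, the high share describes the list. The stretches below run from 20 bases before the first to 20 bases after the last match, on the strand of the gene, with matches to GAAANNGAAA or its reverse complement in capitals. The motif search and the choice of stretches were made after the values were seen. The stretches are those of the 5 members that were at least 2-fold above mock in an array (IFI6, DDX60, DDX60L, LGALS3BP and GBP1), of ISG15, SAMD9 and the IFITM paralogues IFITM1 and IFITM3, and of HERC5 and DTX3L, which hold the motif and were not above mock with miR-34a.

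IFI6 (chr1:27672256-27672368, minus strand): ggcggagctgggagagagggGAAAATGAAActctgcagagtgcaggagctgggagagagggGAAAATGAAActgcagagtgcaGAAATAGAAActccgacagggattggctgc
ISG15 (chr1:1013364-1013419, plus strand): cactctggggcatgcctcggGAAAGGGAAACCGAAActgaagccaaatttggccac
DDX60 (chr4:168318776-168318860, minus strand): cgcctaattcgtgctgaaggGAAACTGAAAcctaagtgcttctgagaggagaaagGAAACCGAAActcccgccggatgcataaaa
DDX60L (chr4:168480513-168480592, minus strand): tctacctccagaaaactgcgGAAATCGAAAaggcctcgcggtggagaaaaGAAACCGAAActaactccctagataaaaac
LGALS3BP (chr17:78979952-78980001, minus strand): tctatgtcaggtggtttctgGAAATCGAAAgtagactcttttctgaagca
GBP1 (chr1:89065306-89065355, minus strand): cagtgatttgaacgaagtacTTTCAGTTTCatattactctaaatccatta
SAMD9 (chr7:93118086-93118135, minus strand): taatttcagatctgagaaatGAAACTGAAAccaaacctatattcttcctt
IFITM1 (chr11:313980-314063, plus strand): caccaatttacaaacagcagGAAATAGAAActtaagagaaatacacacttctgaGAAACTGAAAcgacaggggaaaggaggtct
IFITM3 (chr11:320866-320932, minus strand): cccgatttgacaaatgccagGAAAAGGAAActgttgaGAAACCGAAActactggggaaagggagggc
HERC5 (chr4:88456974-88457074, plus strand): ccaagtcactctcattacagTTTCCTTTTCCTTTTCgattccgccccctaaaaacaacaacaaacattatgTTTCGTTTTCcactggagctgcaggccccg
DTX3L (chr3:122564312-122564361, plus strand): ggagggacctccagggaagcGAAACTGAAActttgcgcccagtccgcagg

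In ISG15 the 2 matches overlap, starting 113 and 107 bases before the transcription start, and in IFI6 the 3 matches begin between 156 and 93 bases before it. In DTX3L the match of 10 bases begins 6 bases before the start and runs across it.

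As a set, the members stood modestly above mock in both transfectant arrays, which is a description of a list drawn up with earlier results known and not independent evidence of its direction. With miR-34a, 26 of the 32 members above the filter were higher than mock, against 55.2% of all genes, and the median log2 difference was 0.42 (quartiles 0.23 and 0.70) against 0.038 over all genes. With ghR-34a, 27 of 32 were higher, against 51.8% of all genes, with a median of 0.21 (quartiles 0.05 and 0.44) against 0.0096. Both comparisons use the same mock array. Because 3 members (GBP1, IFI44 and SAMD9L) lay below the filter level in mock and passed it through the transfectant arrays, the counts were also made on all 45 measured members without a filter. There 29 of 45 were above mock with miR-34a, against 54.7% of all genes, and 30 of 45 with ghR-34a, against 51.0%. The medians were 0.31 and 0.13. Most of the 13 members under the filter were thus below mock in each array. Of the members above the filter without GBP1, IFI44 and SAMD9L, 23 and 24 of 29 were above mock, with medians of 0.38 and 0.18.

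Most differences were smaller than 2-fold. At least 2-fold above mock were 3 members with miR-34a (GBP1, LGALS3BP and IFI6), where 1.22% of all genes were, and 3 with ghR-34a (GBP1, DDX60L and DDX60), where 0.453% were. No member above the filter was 2-fold lower in either array, where 1.14% and 0.571% of all genes were. In a set of 32, shares this small cannot show an absence. At 1.5-fold, 12 of 32 members (37.5%) were higher with miR-34a, against 6.66% of all genes, and 6 of 32 (18.8%) with ghR-34a, against 3.19%. Without the 3 members under the filter level in mock, 2 of 29 were 2-fold higher in each array, and 10 and 5 of 29 were 1.5-fold higher. Above the filter, 0 members were 1.5-fold lower in both comparisons, against 5.31% and 4.06% of all genes. These shares too are small for a set of 32 to show an absence. Under the filter, MX2, CMPK2 and IFI16 with miR-34a and MX2, XAF1 and IFI27 with ghR-34a were 1.5-fold lower. MX1 and TRIM22 with miR-34a and IFI44L with ghR-34a were 1.5-fold higher there.

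**Figure D1:**
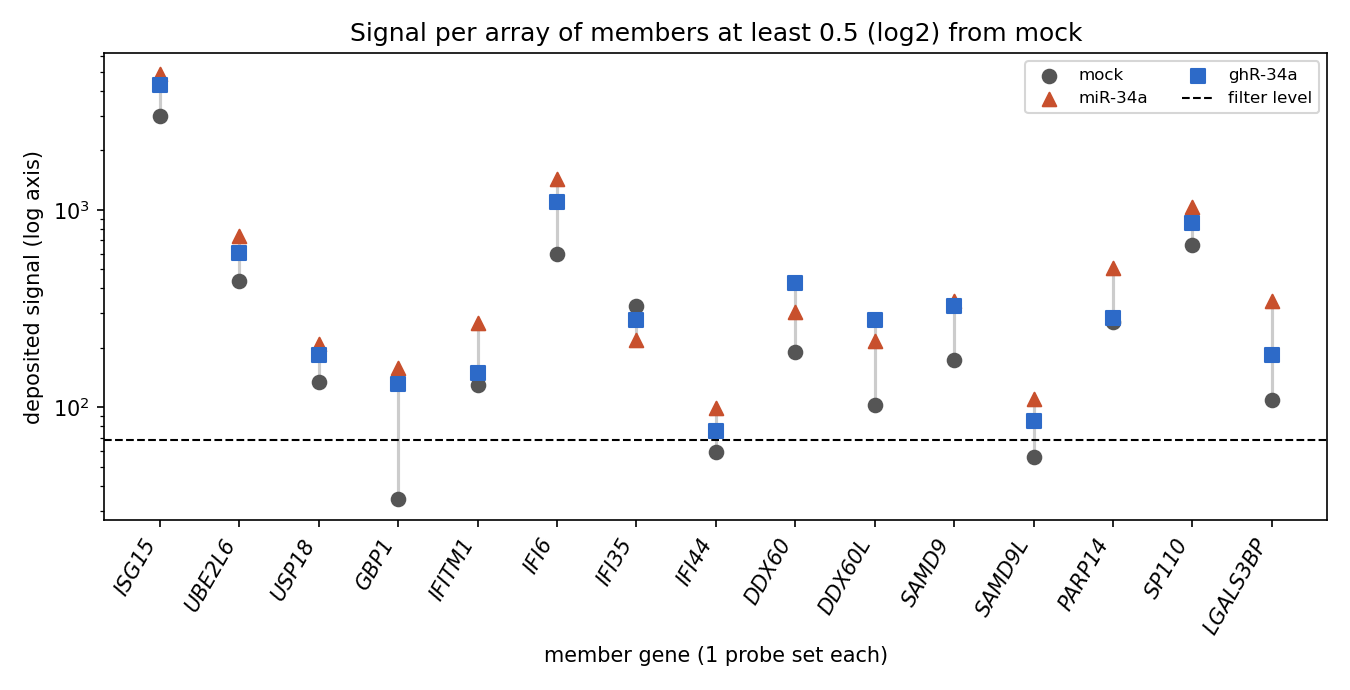
Deposited signal (log axis) of the 15 members whose log2 difference from mock was at least 0.5 in size in either transfectant array, with 1 point per array (mock, miR-34a, ghR-34a) and a dashed line at the filter level of 68.6. In 14 of the 15 the mock point is the lowest of the 3, and IFI35 is the exception, with its highest signal in mock.

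Among the enzymes of ISG15 conjugation, the modifier and its conjugating and removing enzymes were higher and the HERC proteins were not. ISG15, the modifier itself, had a signal of 3000.0 in mock, 4860.1 with miR-34a and 4297 with ghR-34a, log2 differences of 0.69 and 0.51. UBE2L6, the enzyme that carries ISG15 to its ligase, was at 438 in mock, 740.1 with miR-34a and 601 with ghR-34a (0.72 and 0.43). USP18, which removes ISG15 from proteins and dampens signalling at the interferon receptor, was at 135 in mock, 209 with miR-34a and 183 with ghR-34a (0.53 and 0.37). In each of these genes mock was lowest and miR-34a highest. HERC5, the main ISG15 ligase, was level across the arrays at 1169, 1101 and 1172 (differences of -0.084 and 0.0045), although its promoter window holds 3 matches of the response element. Its neighbour HERC6 was at 463 in mock, 337 with miR-34a and 434 with ghR-34a (-0.43 and -0.088).

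Of the 4 antiviral GTPases, only GBP1 was above the filter. GBP1, a guanylate-binding protein that coats intracellular pathogens, had a signal of 34.3 in mock, 157 with miR-34a and 131 with ghR-34a, 2.85-fold and 2.45-fold higher on the scale used (log2 differences of 1.51 and 1.30, ranks 21 and 16 from the top of 11917 genes). Its mock signal was below the filter level, so the size of the difference is uncertain. With a pseudocount of 100 it was at 0.94 and 0.78, and averaged over its 4 probe sets at 0.81 and 0.55, in each case short of 2-fold. GBP2, its genomic neighbour, reached at most 43.7 on any array. MX1, which traps incoming viral nucleocapsids, was at 21.6 in mock, 60.7 with miR-34a and 36.4 with ghR-34a, and MX2, which blocks nuclear entry of retroviruses, at 65.3, 11.2 and 12.4. These signals lie under the filter and it is not known whether they are above background.

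The membrane proteins of the set include the IFITM family, which hinders fusion of enveloped viruses. IFITM1 was at 129 in mock, 267 with miR-34a and 149 with ghR-34a (0.89 and 0.16), so its miR-34a signal stood above the other two. IFITM2 was at 6087, 6858 and 6372 (0.17 and 0.066) and IFITM3 at 6264, 8355 and 7349 (0.41 and 0.23). The IFITM genes lie side by side and are close in sequence, and each was read by 1 probe set of a kind that can cross-react (_s_at or _x_at), so their signals may not be separate. PLSCR1, a phospholipid scramblase, was near mock at 4075, 4208 and 3820 (0.046 and -0.092), and its second probe set above the filter was at 0.41 and 0.23. BST2, which tethers budding virions to the cell, was listed at no more than 13.4 on any array.

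In the IFI group, IFI6 stood out. IFI6, a small protein of mitochondria and endoplasmic reticulum that limits apoptosis and flavivirus replication, was at 601 in mock, 1434 with miR-34a and 1097 with ghR-34a. Its log2 differences were 1.21 (2.32-fold, rank 67 from the top of 11917 genes) and 0.83 (1.78-fold, rank 116), well above the filter on all 3 arrays. IFI44, a cytosolic interferon-induced protein, was at 59.1 in mock, 98.7 with miR-34a and 75.6 with ghR-34a (0.52 and 0.24). IFI35 differed in the other direction, at 326 in mock, 220.1 with miR-34a and 275 with ghR-34a (-0.51 and -0.22). IFI27 (at most 61.3), IFI44L (at most 29.9) and XAF1, a binder of the apoptosis inhibitor XIAP (at most 54.6), were under the filter.

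Among helicases, nucleases and nucleotide enzymes, the DDX60 pair was higher than mock and had its highest signals in the ghR-34a array. DDX60, a helicase reported to assist RNA sensing, was at 190.1 in mock, 302 with miR-34a and 427 with ghR-34a, log2 differences of 0.59 and 1.05. DDX60L, its paralogue and genomic neighbour, was at 103 in mock, 218 with miR-34a and 277 with ghR-34a (0.89 and 1.20, rank 21 from the top with ghR-34a). The probe sets used for both are _s_at. The second probe set of DDX60L gave 91.7, 74.3 and 60.4, which is lower than mock (-0.22 and -0.42), so the direction for DDX60L depends on the probe set. With a pseudocount of 100 DDX60 was at 0.86 and DDX60L at 0.89 in the ghR-34a array, short of 2-fold. SAMHD1, which destroys deoxynucleotides, was level at 1165, 1148 and 1268 (-0.021 and 0.12), and 4 further probe sets above the filter lay between -0.38 and 0.076 with miR-34a and between -0.62 and 0.016 with ghR-34a. ISG20, an RNA exonuclease, was at 215, 275 and 216 (0.31 and 0.0088).

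HELZ2, a helicase and nuclear receptor coactivator, gave discordant probe sets. The one used, an _s_at probe set, was at 95.8 in mock, 139.5 with miR-34a and 102.5 with ghR-34a (0.42 and 0.073). A second one went from 15.8 in mock to 201 with miR-34a and 118 with ghR-34a (2.29 and 1.65). It was under the filter level in mock and passed the filter through the transfectant arrays, so the size of its differences is uncertain. Another was at 75.7, 57.3 and 129.5 (-0.27 and 0.58). RSAD2, which makes a chain-terminating nucleotide, and CMPK2, the nucleotide kinase beside it, reached no more than 28.2 and 27.4 on any array, in both cases in mock.

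The SAMD9 pair and most PARP genes were higher. SAMD9, a cytosolic protein that restricts poxviruses, was at 173 in mock, 344 with miR-34a and 327 with ghR-34a (0.87 and 0.81). Its second probe set was at 56.3, 111.9 and 112.1 (0.70 and 0.71). That probe set was under the filter level in mock and passed the filter through the transfectant arrays, so it is not independent support. SAMD9L, its paralogue and neighbour, was at 55.8 in mock, 110.1 with miR-34a and 85.2 with ghR-34a (0.70 and 0.42). Its 2 other probe sets were under the filter and lower than mock in both arrays, and the average over all 3 was -0.16 and -0.31, so its direction depends on the probe set.

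PARP14, a mono-ADP-ribosyltransferase, was at 270 in mock, 505 with miR-34a and 285 with ghR-34a (0.83 and 0.071), so it was above mock chiefly in the miR-34a array. PARP9, a macrodomain protein of the same family, was at 322, 441 and 405 (0.42 and 0.31), and its second probe set at 0.40 and 0.66. PARP12, which binds RNA, was at 885, 1110 and 1008 (0.32 and 0.18). DTX3L, the ubiquitin ligase that works in a complex with PARP9 and lies next to it in the genome, was lower than mock, at 776 in mock, 578 with miR-34a and 629.6 with ghR-34a (-0.40 and -0.29). The PARP9 and DTX3L messages thus differed from mock in opposite directions in both arrays.

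Proteins of nuclear bodies and the TRIM family gave mixed values. SP110, a nuclear body protein, was at 660.2 in mock, 1033 with miR-34a and 861 with ghR-34a (0.62 and 0.37), and of 4 further ones that passed the filter 3 were higher in both arrays while the last was at -0.018 in both. SP100, a founding component of these bodies, was at 664, 871 and 929 (0.38 and 0.47), and both further ones that passed the filter were also higher. PML, their scaffold, was at 268, 205 and 296.5 (-0.34 and 0.13). Another 6 that passed the filter lay between -0.96 and 0.30 with miR-34a and between -0.24 and 0.44 with ghR-34a, so no direction can be given for PML. TRIM21, an antibody receptor in the cytosol, was at 329.7, 417 and 326 (0.31 and -0.014). The DNA sensor IFI16 (at most 32.8) and TRIM22 (at most 25.5) were under the filter.

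The members that act in antigen processing lay within a narrow range above mock with miR-34a, and from level with mock to moderately above it with ghR-34a. TAP1, a subunit of the peptide transporter, was at 793, 994 and 996 (0.31 and 0.32). The immunoproteasome subunits, encoded on either side of it, were at 742, 891 and 745 for PSMB8 (0.25 and 0.0061) and at 497, 631 and 568 for PSMB9 (0.33 and 0.18). With miR-34a the 3 genes were within 0.25 to 0.33, against an upper quartile of 0.25 over all genes above the filter, and none reached 1.5-fold. The SD of 0.13 among the spike-in controls does not cover the spread between cultures. With ghR-34a they ran from 0.0061 to 0.32.

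Outside these groups, LGALS3BP had the second largest difference of the members in the miR-34a array. LGALS3BP, a secreted glycoprotein that binds galectins, was at 109 in mock, 346 with miR-34a and 185 with ghR-34a, 2.68-fold and 1.54-fold higher (log2 differences of 1.42 and 0.62, ranks 27 and 313 from the top of 11917 genes). It has 1 probe set, and all 3 signals were above the filter level. EPSTI1 and RTP4 were under the filter, at no more than 37.2 and 7.56.

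**Figure D2:**
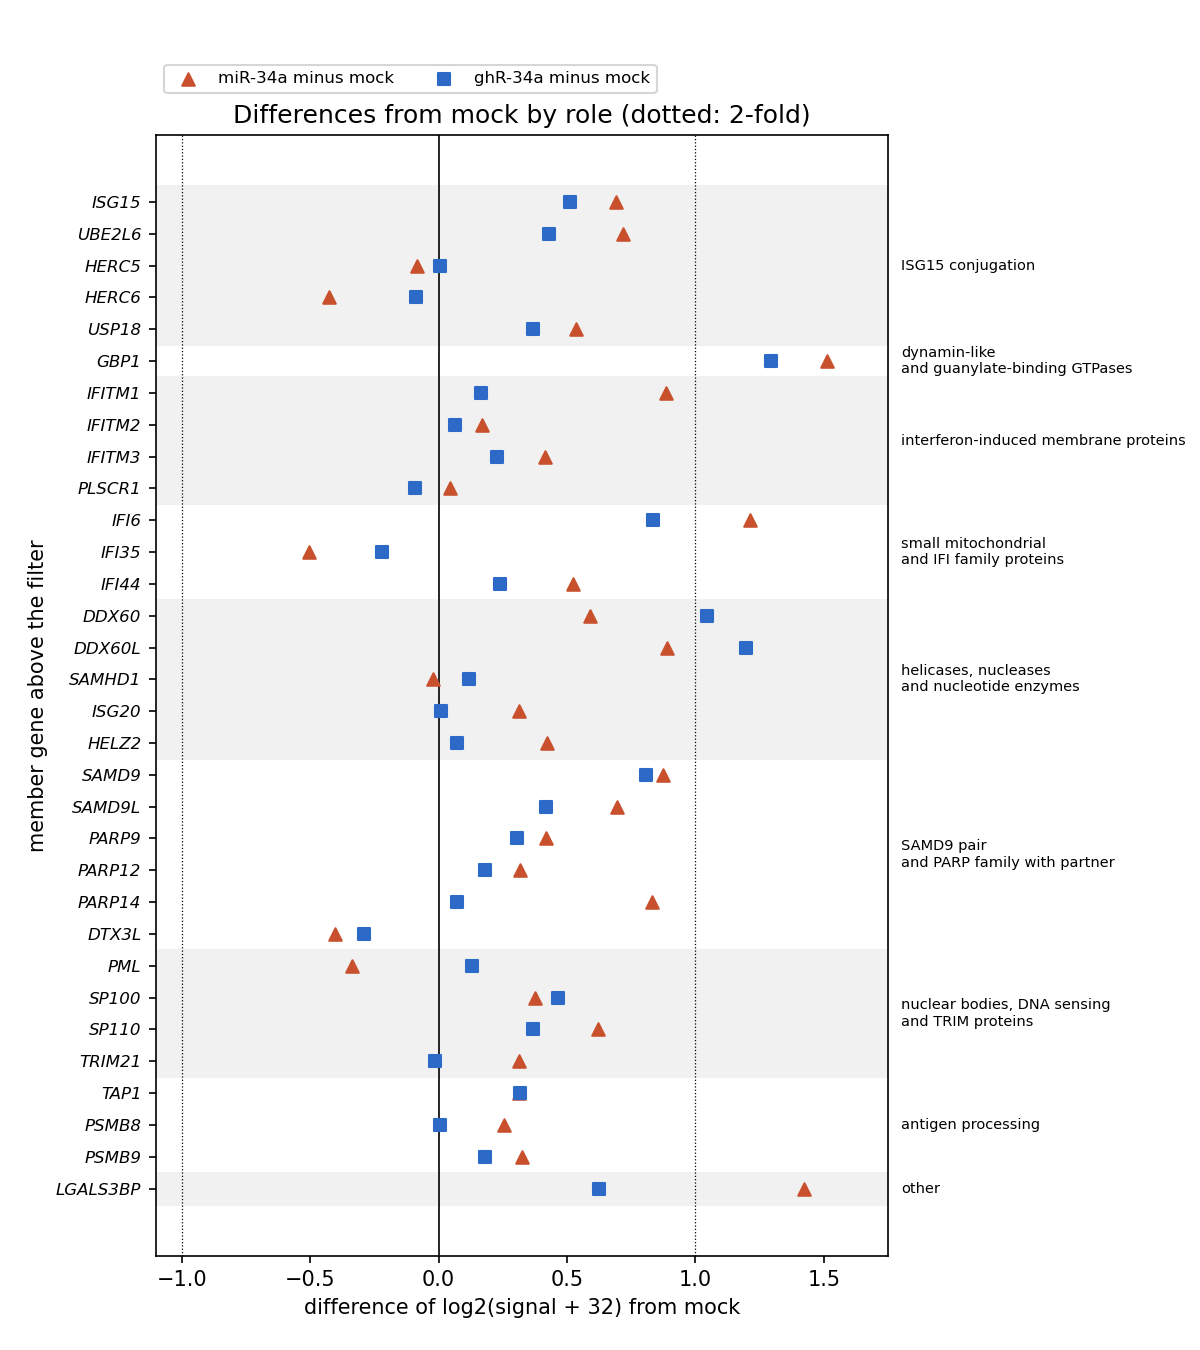
Difference of log2(signal + 32) from mock for the 32 members above the filter, grouped by role, with triangles for miR-34a and squares for ghR-34a and dotted lines at 2-fold. Most points lie to the right of 0, and IFI35, HERC6 and DTX3L lie to the left in both arrays.

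The genome places 22 of the members in 12 pairs of adjacent protein-coding genes, and in 8 pairs both were above the filter. Neighbours did not all differ from mock alike. On the probe sets used, DDX60 with DDX60L and SAMD9 with SAMD9L were higher as pairs in both arrays, although the direction of DDX60L and SAMD9L depends on the probe set. TAP1, PSMB8 and PSMB9 were moderately higher with miR-34a, while PSMB8 stayed level with mock in the ghR-34a array. HERC5 with HERC6 were not above mock with miR-34a, and PARP9 with DTX3L were apart in sign.

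**Figure D3:**
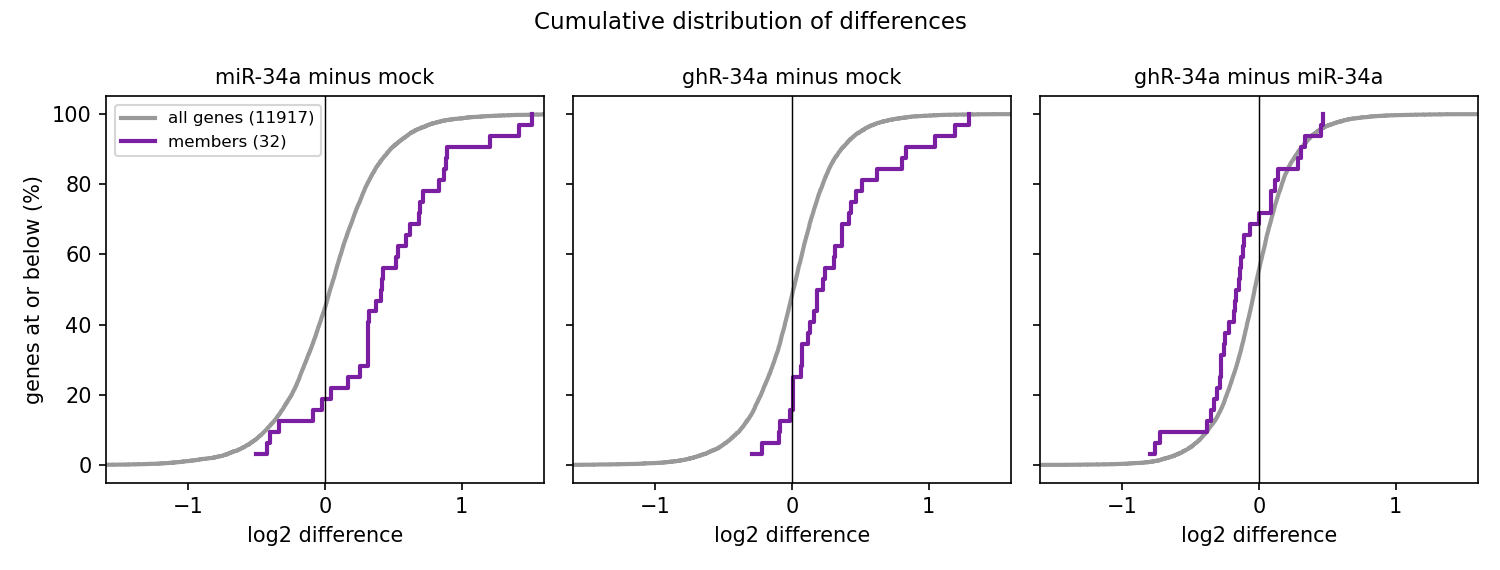
Percent of genes at or below each log2 difference, for the 32 members and for all 11917 genes above the filter, in the 3 comparisons. The member curve lies to the right of the curve of all genes against mock (medians 0.42 and 0.21) and slightly to its left for ghR-34a minus miR-34a (median -0.15).

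When the transfectant arrays were set directly against each other, at the same dose and time, the members as a set were slightly lower with ghR-34a. Of 32 members, 22 were lower with ghR-34a than with miR-34a (68.8%, against 55.6% of all genes), with a median difference, ghR-34a minus miR-34a, of -0.15 (quartiles -0.28 and 0.09) against -0.031 over all genes. No member differed by 2-fold, where 0.327% of all genes were 2-fold higher and 0.344% lower with ghR-34a, shares too small for a set of 32 to show anything. At 1.5-fold, 3 members were lower with ghR-34a (9.38%, against 3.27% of all genes). These were LGALS3BP (-0.80, 346 against 185), PARP14 (-0.76, 505 against 285) and IFITM1 (-0.72, 267 against 149). At 1.5-fold, 0 members above the filter were higher with ghR-34a, against 2.24% of all genes, a share too small for 32 members to show an absence. The largest positive differences were in PML (0.47), DDX60 (0.46), HERC6 (0.34) and DDX60L (0.31). With 1 array each, these values carry no test, and a difference between 2 cultures cannot be told apart from one between the RNAs.

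Grouped by the promoter motif, the members with and without it overlapped. Of the 20 members above the filter whose window held the response element core, 18 were above mock with miR-34a and 17 with ghR-34a, with medians of 0.47 and 0.24. Of the 9 without it, 6 and 7 were above mock, with medians of 0.38 and 0.18. The 20 include GBP1 and IFI44 and the 9 include SAMD9L, which passed the filter through the transfectant arrays. The split was not repeated without these genes. On the probe sets used, all 5 members that reached 2-fold in either array held the motif. So did 69.2% of all members with a window, and 5 genes are too few to show a link with it. Of the 5, GBP1 was under the filter level in mock and the direction of DDX60L depends on the probe set. The highest value without the motif was 0.72 (UBE2L6) with miR-34a and 0.47 (SP100) with ghR-34a. HELZ2, which has no match, is the exception by another probe set, at 2.29 and 1.65. That probe set was at 15.8 in mock and passed the filter through the transfectant arrays, so the size of these differences is uncertain. HERC5 and DTX3L held it and were below mock with miR-34a (-0.084 and -0.40), as were DTX3L (-0.29), PLSCR1 (-0.092) and TRIM21 (-0.014) with ghR-34a.

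The other genes of the interferon pathway, from lists written for this comparison, set the members in context, beside 55.2% and 51.8% of all genes above mock and medians of 0.038 and 0.0096. Of 16 genes of signal transduction above the filter, 14 were higher than mock with miR-34a and 12 with ghR-34a, with medians of 0.26 and 0.090. One of them, SOCS1, passed the filter only through the miR-34a array. Without SOCS1, 13 and 12 of 15 were higher, with medians of 0.23 and 0.094. IRF9, the DNA-binding subunit of ISGF3, was at 405 in mock, 1138 with miR-34a and 705 with ghR-34a (1.42 and 0.75), while IRF7 (0.49 and 0.36) and the receptor chain IL10RB (0.48 and 0.40) were closer to mock. In the IFIT and OAS families 6 of 6 genes above the filter were higher in both arrays, with medians of 0.34 with miR-34a and 0.72 with ghR-34a. OASL passed the filter only through the transfectant arrays, and without it 5 of 5 were higher, with medians of 0.23 and 0.62. Under the filter, OAS1 was at 2.92, 11.3 and 36.2 and OAS2 at 24.8, 49.0 and 16.6. IFIT1, which binds foreign RNA ends, was at 440.2, 885 and 976 (0.96 and 1.09), IFIT2 at 274, 384 and 509 (0.44 and 0.82) and OASL at 67.9, 137 and 146 (0.76 and 0.83). Between the transfectants 5 of these 6 genes were higher with ghR-34a.

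Of 11 RNA and DNA sensors and adaptors above the filter, 7 were higher than mock in each array, with medians of 0.14 and 0.013. Without TLR3, which passed the filter only through the transfectant arrays, 6 of 10 were higher in each, with medians of 0.13 and 0.012. The RNA sensor IFIH1 was at 574, 1094 and 857 (0.89 and 0.55), whereas STING1, the adaptor of DNA sensing, was lower (-0.49 and -0.72), and so was the kinase IKBKE (-0.54 and -0.21). Of 11 genes of class I antigen presentation above the filter, 9 were higher with miR-34a and 7 with ghR-34a, with medians of 0.27 and 0.13, and the highest values with miR-34a were those of HLA-C (0.47, and 0.28 with ghR-34a), PSMB10 (0.47 and 0.13) and HLA-B (0.43 and 0.31). With ghR-34a HLA-F was highest (0.35). Of 8 measured interferon genes, 7 were under the filter, and IFNE alone was above it (136, 151 and 155). IFNB1 was at 1.52, 25.2 and 18.5 and IFNL1 at 34.7, 88.8 and 29.5. Only the IFNL1 signal with miR-34a was above the filter level, and no direction is given for either gene. Of 7 chemokine and surface ligand genes that answer interferon, IDO1 alone was above the filter (68.5, 120.1 and 62.9), which it passed only through the miR-34a array. CXCL10, among the most responsive of them, was at 68.2, 47.4 and 56.4, and CCL5 was at 11.2, 46.5 and 57.9.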

How the data were processed

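Signals of 54675 probe sets on 3 arrays were used as the authors deposited them, as intensity on a linear scale. The submitters' processing notes name Affymetrix Expression Console, and its algorithm and version are not given in the sources used here. All arrays share a 2% trimmed mean of 500.1, so they were scaled alike. No detection calls came with the table used here, and background correction upstream affects low signals most. The scale used is log2(signal + 32), with no further scaling, and 62 control probe sets were set aside. One symbol named 41091 probe sets (6 named controls apart), several symbols named 1801, and 11777 were unnamed here. The filter used the mean of log2(signal + 32) over the 3 arrays. Members and lists were chosen with earlier results of these data known. Every member is accounted for, and those above the filter and at least 0.5 (log2) from mock are given with all 3 signals. Of each other interferon list, up to 3 genes with the largest differences from mock are given, some by log2 difference alone. OAS1, OAS2, HLA-F, IFNB1, IFNL1, CXCL10 and CCL5 fall outside that rule and were added after their values were seen. The difference and the size rule were tested on simulated data. Alternatives were pseudocounts of 1 and 100, no filter, a stricter filter (75th percentile), median centring, quantile normalization, averaged probe sets, no _s_at or _x_at probe sets, and a 1.5-fold rule. Python 3.11.15 was used with numpy 2.4.6 and pandas 2.3.3.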

Additional observations from a re-analysis of the deposited data

How the results depend on the processing

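The median differences of the members kept their sign under all alternatives tried, at 0.31 to 0.43 for miR-34a and 0.13 to 0.34 for ghR-34a against mock, and at -0.19 to -0.075 between the transfectants. Under median centring or quantile normalization the number of members above mock, of 32, was 25 to 26 (miR-34a) and 26 to 28 (ghR-34a). Averaging probe sets gave 25 (miR-34a) and 24 (ghR-34a) of 32. Leaving out _s_at and _x_at probe sets gave 16 and 15 of 20. Counts at 2-fold are small and moved with the setting. With a pseudocount of 1, 5 members were 2-fold higher with miR-34a. With a pseudocount of 100, 0 were with ghR-34a. Without a filter 1 member was 2-fold lower with miR-34a and 2 with ghR-34a. Under the 75th percentile filter, which left 15 members, 1 was 2-fold higher with miR-34a and 0 with ghR-34a. With averaged probe sets 1 was 2-fold higher with ghR-34a. A 1.5-fold rule gave 12 and 6 higher members, and 3 lower with ghR-34a than with miR-34a. Without _s_at and _x_at probe sets DDX60L was at -0.42 with ghR-34a, because another probe set was then read. Leaving out members, and genes of the other lists, under the filter level in mock was chosen after seeing the data. No paired analysis was possible because each condition has 1 array. Signals under the filter level limit GBP1, IFI44 and SAMD9L.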

Other observations

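Of 22 further member probe sets above the filter, which belong to 9 members, 16 had the same sign as the probe set used with miR-34a against mock and 13 with ghR-34a. Among all measured members without a filter, the 2-fold lower values were MX2 in both arrays (-1.17 and -1.13) and XAF1 with ghR-34a (-1.13). The XAF1 signals of 54.6 in mock, 46.5 with miR-34a and 7.69 with ghR-34a, like those of MX2, lie under the filter level on every array, and both other XAF1 probe sets were above mock with ghR-34a, at 0.30 and 0.16.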
